A study of Homo sapiens with 8 samples.

Results

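The 40 genes described here encode the proteasome, its activators and its maturation factor POMP, and they were taken by name from the 24351 genes of the deposited table. They comprise 7 alpha and 7 beta subunits of the core particle, 3 beta subunits of the immunoproteasome, 10 subunits of the base and 8 of the lid of the regulatory particle, 4 activators, and POMP. RNA came from the human myeloma lines ARP1 and H929. Each line was labelled in 4 genotypes: CHEK1 knockdown with its own control, and CHEK1 overexpression with another control. There were 8 libraries, 1 for each line and genotype, which gives n = 2 lines per genotype. No treatment is labelled in any group, and the labels do not say how CHEK1, the gene of a checkpoint kinase, was raised or lowered, nor whether the cells were clones or pools.

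The proteasome degrades proteins marked with ubiquitin. Its core particle is a barrel in which rings of alpha subunits gate the entry and rings of beta subunits cut the substrate, and its regulatory particle has a base, where ATPases unfold the substrate, and a lid, which removes the ubiquitin. In immune cells and plasma cells the catalytic beta subunits PSMB5, PSMB6 and PSMB7 can be replaced by PSMB8, PSMB9 and PSMB10, and activators can bind the core in place of the regulatory particle. Myeloma cells make large amounts of immunoglobulin and depend on the proteasome, which is why drugs that inhibit PSMB5 are used against this cancer.

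All 40 genes were listed and all 40 passed the filter of at least 1 FPKM in at least 2 libraries. FPKM counts fragments relative to transcript length and library total and was summed over a gene's transcripts, so levels of different genes can be compared. Together the members took 0.577% to 0.875% of all FPKM in a library. Their sums were 5497, 5818, 5728 and 3826 FPKM in the ARP1 control of overexpression, overexpression, control of knockdown and knockdown libraries, and 5526, 5390, 5565 and 5263 in H929. Library values below follow this order. The ARP1 library labelled knockdown had the lowest sum, and the other 7 libraries lay close together. By median over the 8 libraries the members ranged from 19.4 FPKM for PSME4, a nuclear activator, to 478 for PSMB4, a structural beta subunit. PSMB4 stood at 499.8, 486, 649 and 454 FPKM in ARP1 and 423, 356, 558 and 471 in H929. PSME4 stood at 16.0, 18.4, 20.7 and 15.5 FPKM in ARP1 and 16.6, 20.4, 20.7 and 21.5 in H929. RNA levels were unequal within each group of subunits: medians of the core beta subunits ran from 61.4 (PSMB6) to 478 FPKM, of the alpha subunits from 39.0 (PSMA5) to 307 (PSMA4), of the base from 49.4 (PSMC6) to 197 (PSMD4), and of the lid from 31.4 (PSMD12) to 163 (PSMD8). PSMB6 shares its place with PSMB9, and the lowest core beta subunit without an immunoproteasome counterpart was PSMB2, at 75.5 FPKM. The germline relatives PSMA8 and PSMB11 reached at most 3.61 and 0.163 FPKM.

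**Figure D1:**
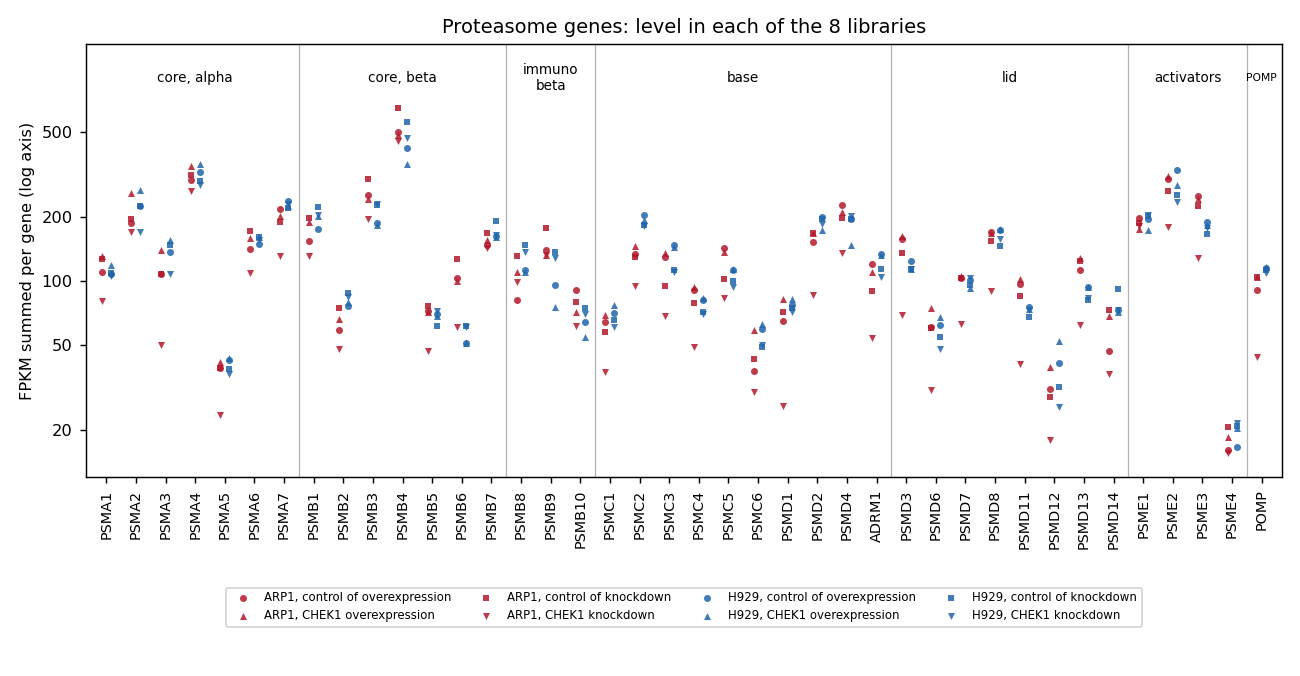
FPKM of each of the 40 genes (columns, grouped by subcomplex) on a log axis, with 1 point per library, ARP1 in red and H929 in blue, and the symbol giving the genotype by label. The ARP1 library labelled knockdown (red triangle pointing down) was the lowest of the 4 ARP1 libraries for 37 of 40 genes, against 33.8% of all tested genes.

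Read depth is unknown for this table, so errors here are the spread of libraries. Plasma cell markers (8 of 8 tested) summed to 1270 to 2487 FPKM, while those of T and NK cells summed to at most 14.3, of myeloid cells to at most 2.89 and of erythroid cells to at most 1.95. The plasma cell markers were not all present in both lines. SLAMF7 stood at 16.1, 13.3, 14.9 and 27.4 FPKM in ARP1 but at 0.20, 0.08, 0.08 and 0.20 in H929, so it passed the filter through ARP1 alone. CHEK1 itself stood at 78.2, 114, 61.0 and 51.6 FPKM in ARP1 and 81.6, 107, 80.7 and 84.8 in H929, so the H929 library labelled knockdown had more of it than its control. The ARP1 library labelled knockdown stood apart from its control more than the H929 one did: 1231 genes differed by 2-fold or more against 536, beside 764 and 649 between the controls of each line. In bulk RNA, fewer cells with a transcript and less of it in every cell cannot be told apart.

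In the libraries labelled knockdown, proteasome genes were lower than in the control of knockdown, by far more in ARP1 than in H929. In ARP1 all 40 members were lower, at a median log2 ratio of -0.63, where 52.1% of all 14905 tested genes were lower and the median of all genes was -0.03. In H929 28 of 40 were lower, at a median of -0.06, where 48.4% of all genes were lower and their median was 0.00, and 12 were higher (50.2%). Against the control of overexpression 39 were lower in ARP1 (median -0.73) and 25 in H929 (median -0.08). Of all 14905 genes, 7607 were lower against that control in ARP1 (median -0.02) and 6969 in H929 (median 0.02). Against the control of knockdown, to which the ratios below refer, 28 were lower in both lines, against 28.9% of all genes, and no member was higher in both, against 27.2%. In ARP1 23 members were lower by 1.5-fold or more (13.5% of all genes) and 5 by 2-fold or more (3.72%), while in H929 no member was lower (4.78%) or higher (4.72%) by 1.5-fold. The log2 ratio was more negative in ARP1 than in H929 for 39 of 40 members (53.7% of all genes), PSMA2 being the exception, and this difference between lines has 1 library on each side of a ratio and was not tested.

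Over both lines, limma called 0 of 40 members at an adjusted p under 0.05, beside 2 of 14905 genes (0.0134%), both lower. At an unadjusted p under 0.05 there were 6 members, all lower (PSMA2, PSMA3, PSMB4, PSMD6, PSMD12 and PSMD14), against 4.72% of all genes, and no other tool was run. The fitted log2 fold change was negative for 40 of 40 (52.1% of all genes) and positive for none (47.7%), with a median of -0.34 beside -0.02 over all genes. Without the ARP1 library labelled knockdown the median was -0.06, with 28 lower and 0 called. Without the H929 one it was -0.61, and 23 members passed at an adjusted p under 0.05, where 4.41% of all genes passed as lower; that fit has 1 library labelled knockdown and assumes it to vary as the other groups do. The 23 were 7 lid, 5 alpha, 5 base and 4 core beta subunits, PSME3 and POMP, and none of the 3 immunoproteasome subunits.

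**Figure D2:**
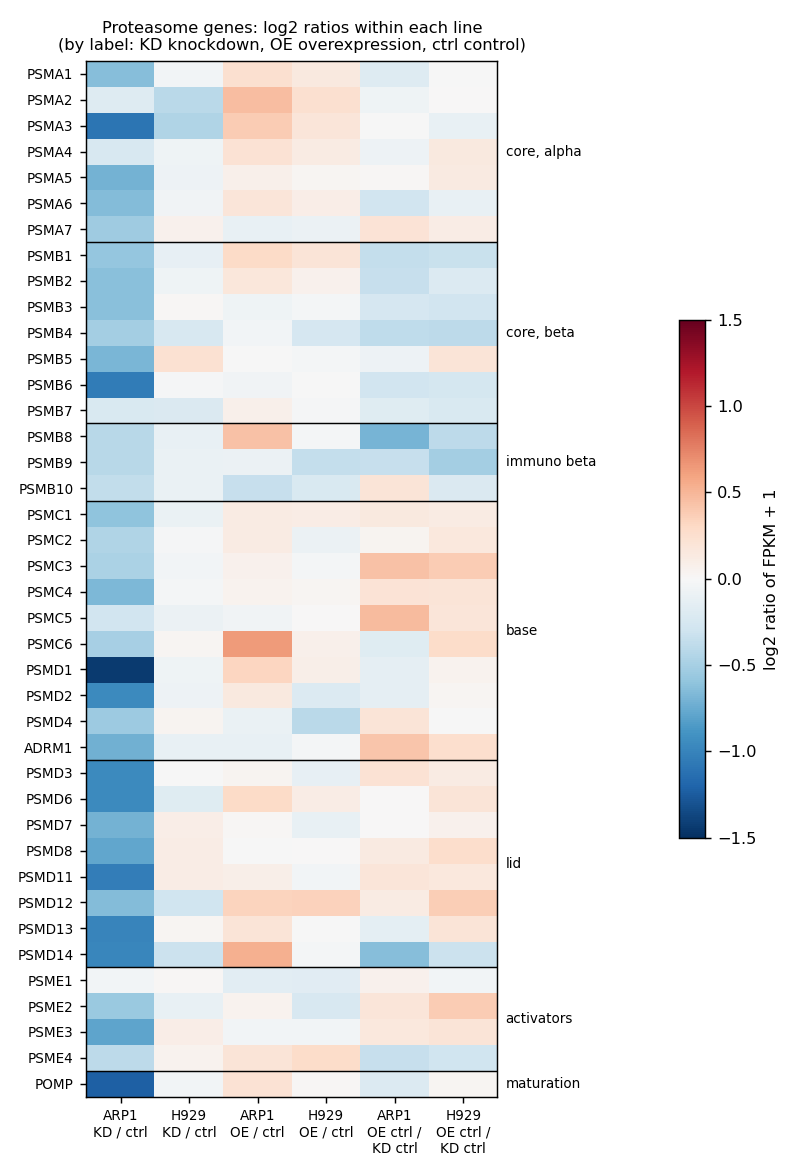
Log2 ratios of FPKM + 1 within each line (columns) for the 40 genes (rows, by subcomplex), blue lower and red higher, on a scale cut at -1.5 and 1.5. The first column, ARP1 knockdown against its control, is blue throughout, from -0.05 (PSME1) to -1.44 (PSMD1), and the second, H929, runs from -0.45 (PSMA3) to 0.23 (PSMB5).

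Among the alpha subunits, which form the outer rings of the core, the ARP1 ratios ran from -0.20 (PSMA2) to -1.10 (PSMA3), with a median of -0.64, and 6 of 7 were also lower in H929. PSMA3 (ENSG00000100567, chr14:58244831-58272012, plus strand in GRCh38) stood at 108, 140.1, 108 and 50.0 FPKM in ARP1 and 137, 156, 148 and 108 in H929. It was the lowest in the library labelled knockdown in each line, at log2 ratios of -1.10 and -0.45, and limma gave -0.77 (SE 0.22, adjusted p = 0.511). An antisense gene, PSMA3-AS1, overlaps the end of PSMA3; it stood at 36.4, 31.4, 29.9 and 43.1 FPKM in ARP1 and 29.3, 26.4, 28.9 and 32.2 in H929, and since strand-specific counting is not stated its reads and those of PSMA3 cannot be told apart. PSMA2 had the ratio nearest to 0 of the alpha subunits in ARP1, -0.20, and a lower one in H929, -0.40, the reverse of the order in the other 39 members. PSMA7 alone of the alpha subunits was higher in H929 (0.06).

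The core beta subunits had a median of -0.63 in ARP1 and -0.06 in H929. PSMB4 (ENSG00000159377, chr1:151399534-151401944, plus strand), the most abundant member, was lower in both lines, at -0.51 and -0.25 (limma -0.38 (SE 0.15, adjusted p = 0.538)). Against the control of overexpression instead, its H929 ratio was 0.15 and the limma value over both lines 0.01. PSMB6, the constitutive subunit of caspase-like activity, stood at 103, 99.9, 127 and 60.9 FPKM in ARP1 and 51.4, 51.0, 61.7 and 61.0 in H929. Its log2 ratio was -1.04 in ARP1 and -0.02 in H929. PSMB5, the constitutive subunit of chymotrypsin-like activity and the main target of proteasome inhibitors, stood at 72.3, 71.8, 76.2 and 47.0 FPKM in ARP1 and 70.1, 68.4, 61.3 and 72.0 in H929, a ratio of -0.69 in ARP1 and 0.23 in H929, where it was the member with the highest ratio. PSMB7, of trypsin-like activity, had about the same ratio in both lines (-0.23 and -0.22). The 3 immunoproteasome subunits lay close to each other against this control. PSMB8 had an ARP1 ratio of -0.41 and an H929 ratio of -0.11, PSMB9 had -0.41 and -0.10, and PSMB10 had -0.37 and -0.11. Against the control of overexpression they spread, at 0.28 (PSMB8), -0.07 (PSMB9) and -0.56 (PSMB10) in ARP1, and all 3 were higher in H929, at 0.28, 0.40 and 0.11. The 7 core beta subunits were then also all higher in H929 (median 0.15) and all lower in ARP1 (median -0.29), and PSMB6 was at -0.26 by limma.

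In the base the median was -0.58 in ARP1 and -0.06 in H929, and 8 of 10 were lower in both lines. PSMD1 (ENSG00000173692, chr2:231056864-231172827, plus strand), a large scaffold subunit, had the lowest ARP1 ratio of all members. It stood at 65.1, 82.0, 71.8 and 25.9 FPKM in ARP1 and 77.5, 82.2, 74.6 and 71.2 in H929, and the 7 libraries other than ARP1 knockdown held 65.1 to 82.2 FPKM. The limma log2 fold change was -0.75 (SE 0.34, adjusted p = 0.563). Its leading transcript PSMD1-201, with 58.3% of the gene, had an ARP1 ratio of -0.67, and PSMD1-213, with 36.3%, had -2.22. The other scaffold, PSMD2, had ratios of -0.95 and -0.08. The 6 ATPases PSMC1 to PSMC6 ran from -0.29 (PSMC5) to -0.67 (PSMC4) in ARP1. Of the ubiquitin receptors, ADRM1 was at -0.72 and -0.11, and PSMD4 at -0.55 and 0.04.

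The lid had the lowest median of any group of several members in ARP1, -0.96, while its H929 median was 0.01, with 4 of 8 lower and 4 higher. Its ARP1 ratios ran from -0.65 (PSMD12) to -1.04 (PSMD11). PSMD14 (ENSG00000115233, chr2:161308038-161411717, plus strand), the deubiquitinase that strips ubiquitin chains from substrates, stood at 46.9, 68.1, 73.3 and 36.6 FPKM in ARP1 and 72.8, 71.3, 91.3 and 72.7 in H929. PSMD12 (ENSG00000197170, chr17:67337916-67366627, minus strand), a structural subunit, stood at 31.0, 39.4, 28.5 and 17.9 FPKM in ARP1 and 41.1, 52.5, 31.7 and 25.6 in H929. Both were lowest in the library labelled knockdown of their line, apart from PSMD14 in H929, where overexpression was lower still. Their ratios were -0.98 and -0.32 for PSMD14, and -0.65 and -0.29 for PSMD12. By limma PSMD14 was at -0.65 (SE 0.22, adjusted p = 0.53) and PSMD12 at -0.47 (SE 0.14, adjusted p = 0.511). Against the control of overexpression PSMD14 was at -0.17 by limma and at -0.0015 in H929, where its control of knockdown was the 1 high library, while PSMD12 was at -0.71 by limma. The transcript PSMD14-202 stood at 20.8 (ARP1) and 17.9 FPKM (H929) in the controls of knockdown and at 0.0001 in both controls of overexpression. The leading PSMD14-201 had knockdown ratios of -0.60 and -0.21. PSMD11, a subunit that helps hold lid and base together, was low in ARP1 alone: it stood at 96.4, 103, 84.7 and 40.8 FPKM in ARP1 and 75.7, 73.7, 67.4 and 73.2 in H929, ratios of -1.04 and 0.12.

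Of the activators, PSME1 and PSME2, which form a ring that interferon induces, differed from each other. PSME1 stood at 197, 176, 188 and 182 FPKM in ARP1 and 196, 174, 201 and 204 in H929, and its ratio of -0.05 in ARP1 was the closest to 0 of all members. PSME2 stood at 301, 312, 266 and 180.0 FPKM in ARP1 and 332, 281, 254 and 235 in H929, ratios of -0.56 and -0.11. PSME3, a nuclear relative of these, stood at 250.1, 243, 224 and 129 FPKM in ARP1 and 189.9, 184, 166 and 178 in H929, and was lower in ARP1 (-0.80) and higher in H929 (0.11). PSME4, given above, had ratios of -0.39 and 0.05. POMP (ENSG00000132963, chr13:28659104-28678925, plus strand), the chaperone that completes the core particle, stood at 90.4, 105, 104 and 44.1 FPKM in ARP1 and 115, 116, 112 and 109 in H929. Its 7 other libraries held 90.4 to 116 FPKM, so the ARP1 library labelled knockdown alone was low (ratio -1.22, against -0.04 in H929), and limma gave -0.63 (SE 0.28, adjusted p = 0.563).

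**Figure D3:**
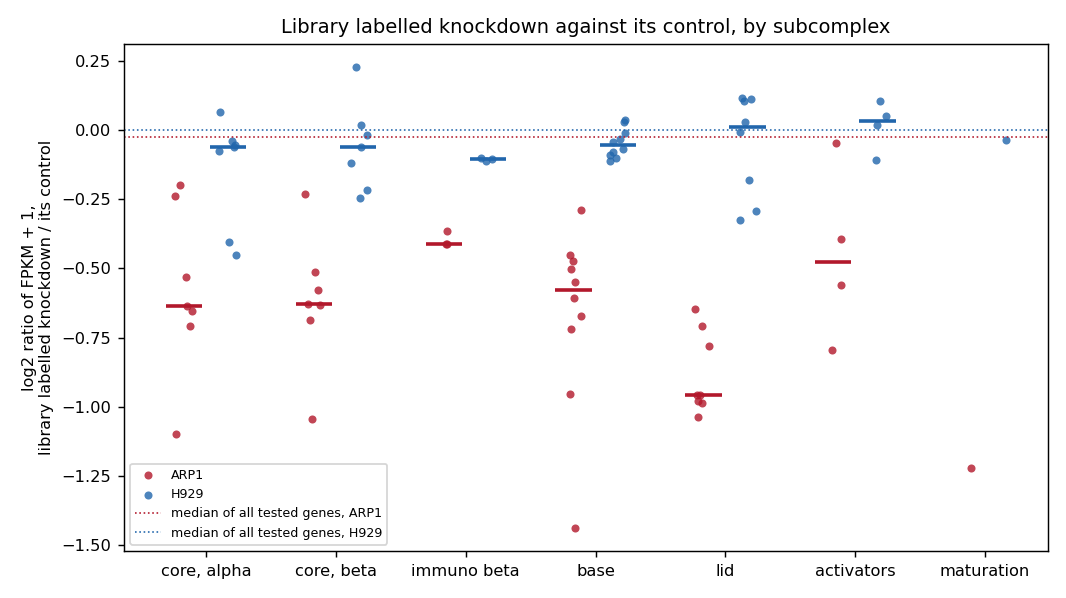
Log2 ratio of FPKM + 1, library labelled knockdown over its control, for each member (points) by subcomplex, ARP1 in red and H929 in blue, with the group's median as a bar and the median of all tested genes as a dotted line. ARP1 medians run from -0.41 (immunoproteasome subunits) to -0.96 (lid) with POMP at -1.22, and H929 medians from -0.11 to 0.03.

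Summed levels gave the same picture: the library labelled knockdown stood at 0.668 times its control in ARP1 for all members together, 0.536 times for the lid, 0.726 times for the alpha and 0.677 times for the core beta subunits, and at 0.946 times for all members in H929. The ARP1 library labelled knockdown was below both ARP1 controls for 39 of 40 members (39.4% of all genes), PSMB8 being the exception, and was the lowest of all 8 libraries for 33 (23.7%). In H929 the library labelled knockdown was below both controls for 19 (29.1%). VIM, a gene of the stroma list that these lines express, stood at 959.5, 1391, 782 and 1396 FPKM in ARP1 and 883, 1072, 942 and 1065 in H929; the other 6 stroma and epithelium markers summed to 1.59 to 17.1 FPKM, EPCAM being at 0 in 7 libraries. The part of such differences between libraries in the proteasome result was not tested.

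The lower level in ARP1 was then read transcript by transcript. The transcripts are parts of the gene sums above, so their ratios are not independent of those. The table listed 172 transcripts of the members, and the most abundant transcript of each gene was lower in the ARP1 library labelled knockdown for 40 of 40 genes (median -0.59) and in H929 for 29 (median -0.07). This transcript held 90% or more of its gene for 20 members and under 60% for 9. Of 74 transcripts with at least 5% of their gene, 70 were lower in ARP1, the exceptions being PSMA2-204, PSMA4-210, PSMB5-203 and PSME2-217, and 47 in H929. PSMA2-204 held 20.3% of its gene and had a ratio of 1.19 in ARP1 and -5.38 in H929, where the library labelled knockdown had 0.0023 FPKM of it, while PSMA2-201, with 79.7%, had -0.50 and -0.12. The ratios of summed PSMA2, like those of PSMD1 and PSMD14 above, thus join transcripts that differ.

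Promoter sequences, 250 bases upstream of the RefSeq gene start in build GRCh38.p14, were found for 35 of the 40 members (PSMA7, PSMB1, PSMB6, PSMB7 and PSMD4 were not in the table). The RefSeq start lay within 50 bases of the start of the member's leading transcript for 22 of the 35, the 4 printed here included, and as far as 7213 bases away for PSMC2, so the other 13 windows may not be the promoter of the measured transcript. Genes of the proteasome are known targets of NFE2L1, a factor that binds antioxidant response elements when proteasome activity falls, of NF-Y, which binds CCAAT boxes, and, for the immunoproteasome and PSME2, of interferon-regulated factors. The element core TGACNNNGC on either strand was in 8 of 35 member promoters (22.9%) and in 10.9% of all 35116. CCAAT was in 16 (45.7%, against 32%), the core of the interferon-stimulated response element in 4 (11.4%, against 3.02%; PSMA4, PSMB4, PSMB10 and PSME2), and the heat shock element in 0 (against 0.441%). No match overlapped a match of another of these motifs in a member. The 4 promoters below are shown because PSMA3 and PSMD12 were among the genes lower in both lines, PSMD3 is a lid gene with the response element near its start, and PSME2 holds both that and the interferon element; capitals mark the matches, and each sequence is printed 5′ to 3′ on the strand of its gene.
PSMA3, chr14:58244593-58244842 plus strand: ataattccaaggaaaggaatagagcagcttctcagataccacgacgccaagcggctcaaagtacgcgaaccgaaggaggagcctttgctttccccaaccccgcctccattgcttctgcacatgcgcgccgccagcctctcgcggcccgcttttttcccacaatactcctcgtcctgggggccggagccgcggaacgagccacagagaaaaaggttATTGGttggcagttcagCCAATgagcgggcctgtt
PSMD12, chr17:67366578-67366827 minus strand: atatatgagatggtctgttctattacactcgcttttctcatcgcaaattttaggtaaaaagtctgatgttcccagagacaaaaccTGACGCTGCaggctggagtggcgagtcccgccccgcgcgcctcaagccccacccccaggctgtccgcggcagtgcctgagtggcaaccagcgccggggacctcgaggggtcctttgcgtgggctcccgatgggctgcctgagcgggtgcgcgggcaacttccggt
PSMD3, chr17:39980557-39980806 plus strand: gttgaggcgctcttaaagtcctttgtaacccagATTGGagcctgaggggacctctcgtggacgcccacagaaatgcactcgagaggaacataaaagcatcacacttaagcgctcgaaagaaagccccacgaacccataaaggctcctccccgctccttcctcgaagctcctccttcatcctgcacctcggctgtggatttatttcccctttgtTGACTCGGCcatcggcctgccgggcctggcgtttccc
PSME2, chr14:24146611-24146860 minus strand: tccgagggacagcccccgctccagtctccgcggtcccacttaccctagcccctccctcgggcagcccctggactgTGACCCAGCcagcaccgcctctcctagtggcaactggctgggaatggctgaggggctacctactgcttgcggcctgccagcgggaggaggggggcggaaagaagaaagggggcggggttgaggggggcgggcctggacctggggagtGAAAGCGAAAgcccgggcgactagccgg
PSMA3 held a pair of CCAAT boxes, 1 on each strand, at 35 to 31 and 18 to 14 bases before the start. The element core was at 165 to 157 bases before the start in PSMD12, at 37 to 29 in PSMD3 and at 175 to 167 in PSME2, where the interferon element was at 28 to 19. In ARP1 knockdown the 8 members with the element core had a median log2 ratio of -0.60 and the 27 without it -0.67; with and without a CCAAT box the medians were -0.71 and -0.63, and with (4 members) and without (31) the interferon element they were -0.44 and -0.67. In H929 the medians were -0.06 and -0.06 for the element core, -0.06 and -0.06 for the CCAAT box, and -0.11 and -0.04 for the interferon element. A match in these windows is a description of the sequence, and binding was not measured.

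With CHEK1 overexpression the proteasome genes differed little from the control, in both directions. In ARP1 27 of 40 were higher than in the control of overexpression (46.8% of all genes), at a median log2 ratio of 0.08, and in H929 18 were higher (49.9%) and 22 lower (48.6%), at a median of -0.02. In the fit 23 were higher (48.5%) and 17 lower (51.5%). In both lines 16 were higher (28% of all genes) and 11 lower (30.1%). Limma called 0 members, and 1 gene of all, lower (0.00671%); at an unadjusted p under 0.05 there were 2 members, PSMA2 and PSMD12, both higher, where 1.87% of all genes were higher and 2.58% lower. The members' median was 0.03, beside -0.01 over all genes. It was -0.10, with 27 lower, without the ARP1 overexpression library, and 0.17, with 2 lower, without the H929 one.

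Of the alpha subunits 6 of 7 were higher with overexpression in both lines, at a median of 0.21 in ARP1 and 0.12 in H929. PSMA2 stood at 188, 259, 196 and 170.3 FPKM in ARP1 and 226, 267, 226 and 171 in H929, with overexpression the highest in each line and ratios of 0.46 and 0.24 (limma 0.35 (SE 0.12, adjusted p = 0.994)). In H929 the difference lay in PSMA2-204, at 41.4 FPKM in the control and 81.0 with overexpression, while the leading PSMA2-201 had a ratio of 0.0067; in ARP1 the ratios were 1.13 and 0.24. PSMD12, whose values are given above, was also highest with overexpression in each line, at 0.33 and 0.35 (limma 0.34 (SE 0.14, adjusted p = 0.994)). PSMB1, a core beta subunit without catalytic activity, was at 0.29 and 0.20, and PSME4 at 0.19 and 0.28. For these last genes the sign turned when the control of knockdown was used instead, to -0.10 (PSMB1) and -0.09 (PSME4). PSMC6, an ATPase, had the largest ratio of any member in ARP1, 0.63, but 0.08 in H929.

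PSMB10, the immunoproteasome subunit of trypsin-like activity, was lower with overexpression in both lines. It stood at 91.0, 71.4, 79.5 and 61.4 FPKM in ARP1 and 64.4, 54.8, 75.0 and 69.6 in H929, ratios of -0.35 and -0.23 (limma -0.29 (SE 0.18, adjusted p = 0.994)). PSMD4 was lower in H929 (-0.40) more than in ARP1 (-0.10). PSME1 was at -0.16 and -0.17, and PSMA7 at -0.11 and -0.09. The sign of PSMA7 turned, to 0.06, against the control of knockdown, to 0.04 without the ARP1 control of overexpression and to 0.02 without the H929 overexpression library, and that of PSMD4, to 0.06, without that last library. PSMB8 was at 0.44 in ARP1 and -0.03 in H929.

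Where the effect of overexpression was subtracted from that of knockdown, the members' median was -0.42 (all genes 0.00), and 38 of 40 were negative in the fit (50.3% of all genes), PSMB10 and PSME1 being positive (49.7%). Limma called 0 members and 2 genes, 1 in each direction (0.00671% each), and at an unadjusted p under 0.05 there were 6 members, all negative (3.84% of all genes, and 4.15% positive): PSMA2, PSMA3, PSMB1, PSMD6, PSMD12 and PSMD14. The lowest p among them was that of PSMD12, at -0.81 (SE 0.20, adjusted p = 0.621). Without the H929 library labelled knockdown the median was -0.72, and 2 members and 49 of 14735 genes passed. Without the ARP1 one it was -0.06, with 26 negative, and 0 members passed. The median over both lines thus rests on the ARP1 library.

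Between the controls the direction of the ratios varied by subcomplex, a pattern read from the values and not tested. Set over the control of knockdown, the control of overexpression had a median of 0.03 over the members. In the fit 22 were higher (48% of all genes) and 18 lower (51.9%), and 21 were lower in ARP1 (50.7%) and 16 in H929 (51.1%), with 16 higher in both lines (30.3% of all genes) and 13 lower in both (32.9%). The core beta subunits were lower in the control of overexpression for 7 of 7 in ARP1 and 6 of 7 in H929 (medians -0.29 and -0.26), and PSMB8 and PSMB9 were lower in both lines. The base was higher for 7 of 10 in ARP1 and 9 of 10 in H929 (medians 0.17 and 0.17), and the lid for 6 and 7 of 8 (medians 0.06 and 0.18). PSMB8, the immunoproteasome counterpart of PSMB5, stood at 81.0, 111, 132 and 98.9 FPKM in ARP1 and 112, 109.7, 148 and 137 in H929, ratios between controls of -0.69 and -0.39. PSMB4 was at -0.38 and -0.40, and the ATPase PSMC3, which stood at 129, 135, 95.1 and 68.2 FPKM in ARP1 and 148, 144, 113 and 109.7 in H929, at 0.44 and 0.38. Limma called 0 members and 8 genes (0.0335% lower, 0.0201% higher); PSMB4, PSMB8 and PSMC3 had an unadjusted p under 0.05, where 6.09% of all genes were lower and 4.64% higher at that threshold. These comparisons share control libraries with those of knockdown and overexpression.

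Between the cell lines, 28 members were lower in ARP1 in the fit (49.9% of all genes) and 12 higher (50.1%). Their median was -0.13, beside 0.00 over all genes. Without the ARP1 library labelled knockdown, and likewise without the H929 one, 22 were lower and the median was -0.02. Limma called 5, where 13.4% of all genes were lower and 13.7% higher at an adjusted p under 0.05. PSMC2, an ATPase of the base, was 126 ± 21.8 FPKM in ARP1 and 190.3 ± 10.4 in H929 (SD, n = 4 libraries per line, a mean over the 4 genotypes). It stood at 134, 146, 130.1 and 94.8 FPKM in ARP1 and 204, 193, 183 and 181 in H929, so the lines did not overlap (limma -0.61 (SE 0.11, adjusted p = 0.00984)). PSMB6 was higher in ARP1, 97.7 ± 27.2 against 56.3 ± 5.89 FPKM, with the ARP1 library labelled knockdown inside the H929 range (limma 0.74 (SE 0.18, adjusted p = 0.0277)). PSMB9, the immunoproteasome counterpart of PSMB6, was also higher, and stood at 139.6, 132, 177 and 133 FPKM in ARP1 and 96.1, 75.1, 137 and 128 in H929 (limma 0.44 (SE 0.13, adjusted p = 0.0473)). PSMB2, a core beta subunit, was lower in ARP1, without overlap, and stood at 58.7, 65.9, 74.6 and 47.9 FPKM in ARP1 and 76.3, 80.0, 87.9 and 84.1 in H929 (limma -0.42 (SE 0.12, adjusted p = 0.0412)), and PSMD12 was lower with overlapping ranges, 29.2 ± 8.87 against 37.7 ± 11.7 FPKM (limma -0.36 (SE 0.10, adjusted p = 0.0396)). Of 18 alternatives, PSMC2 passed the threshold in 17, PSMB6 in 11, PSMB2 in 9, PSMB9 in 8 and PSMD12 in 6, and the count of members called ran from 0 with no filter on low values to 11 without either knockdown library.

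Further members with large differences in the fit did not pass: PSMA3 was at -0.51 (SE 0.16, adjusted p = 0.0534), PSMD14 at -0.49 (SE 0.15, adjusted p = 0.0554) and POMP at -0.47 (SE 0.20, adjusted p = 0.129) by limma, all lower in ARP1, and PSMB3 at 0.25 (SE 0.13, adjusted p = 0.208) and PSMD13 at 0.22 (SE 0.17, adjusted p = 0.367), both higher. The lines did not overlap for PSMA7, PSMB2, PSMC2, PSMD2 and POMP, lower in ARP1 (13.7% of all genes), and for none that was higher (13.3%). When the knockdown libraries of both lines were set aside, those 5 did not overlap (18.7% of all genes) and 9 more had all ARP1 libraries higher (19.7%): PSMB3, PSMB5, PSMB6, PSMD3, PSMD4, PSMD7, PSMD11, PSMD13 and PSME3. Without the ARP1 library labelled knockdown limma called 11 members and 4124 of 14592 genes, and without the H929 one 11 members and 4136 of 14735 genes, so the members' share was near that of all genes. PSMB3, a core beta subunit, stood at 254, 242, 303 and 195 FPKM in ARP1 and 187, 183, 228 and 231 in H929, and the lid subunit PSMD13 at 112, 128, 125 and 62.3 FPKM in ARP1 and 93.8, 93.7, 81.8 and 83.6 in H929, so in both genes the ARP1 library labelled knockdown was the one within the H929 range or below it.

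The immunoproteasome share, the FPKM of an immunoproteasome subunit over its sum with the constitutive counterpart, was compared between the lines. The permutation test took the 4 genotypes of a line as replicates and did not pair them across lines, so its p-values depend on that. PSMB8 made up 52.9%, 60.7%, 63.4% and 67.8% of PSMB8 plus PSMB5 in ARP1 and 61.5%, 61.6%, 70.7% and 65.5% in H929. The means of 61.2 ± 6.26% and 64.8 ± 4.31% (SD, n = 4) did not differ beyond the spread (exact two-sided permutation test, p = 0.4, also after adjustment). PSMB9 made up 57.5%, 56.9%, 58.3% and 68.6% of PSMB9 plus PSMB6 in ARP1 and 65.2%, 59.6%, 68.9% and 67.7% in H929 (exact permutation p = 0.2, adjusted 0.3). PSMB10 made up 38.2%, 31.5%, 32.2% and 30.2% of PSMB10 plus PSMB7 in ARP1 and 28.3%, 25.5%, 28.2% and 29.8% in H929. All 4 ARP1 libraries were above all 4 H929 libraries for this pair, with means of 33.0 ± 3.56% and 28.0 ± 1.80%, an exact permutation p of 0.0286, the smallest that 4 against 4 can give, and 0.0857 after Benjamini-Hochberg adjustment over the 3 shares. PSMB8 and PSMB9 thus made up more than PSMB5 and PSMB6 in all 8 libraries, and PSMB10 less than PSMB7. PSMB8-AS1, at 13.8 to 37.8 FPKM, and PSMB9 overlap PSMB8 on chromosome 6, so the reads of PSMB8 are uncertain where the counting did not use strand.

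**Figure D4:**
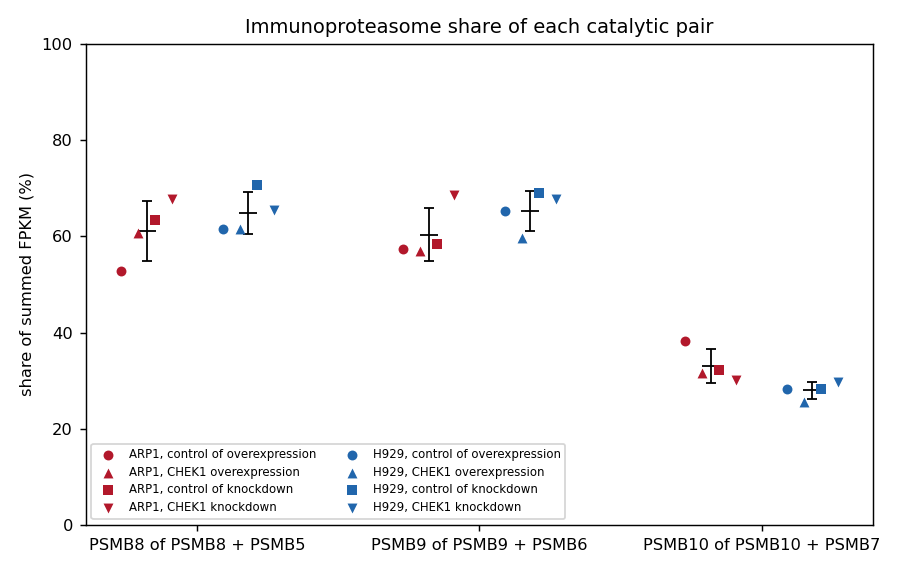
Share of the immunoproteasome subunit in each catalytic pair, as a percent of the summed FPKM of both genes, with 1 point per library and the mean with SD of each line (n = 4) as bars. PSMB10 lies between 25.5% and 38.2%, and the other pairs lie between 52.9% and 70.7%.

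Genes that work with the proteasome were read from 4 lists of 14 or 15 genes, all tested. None passed in the knockdown comparison by limma, an unadjusted p under 0.05 was reached by 3 assembly factors and regulators, 1 gene of ubiquitin and its shuttles, 3 transcription factors and 2 genes of class I presentation (4.72% of all genes as lower and 4.42% as higher). The medians of these lists were -0.07, -0.12, -0.10 and -0.05. In ARP1 their medians were -0.19, -0.26, 0.07 and -0.14, against -0.63 for the proteasome genes. NFE2L1, the factor that raises proteasome genes, was higher in the library labelled knockdown: it stood at 70.6, 51.9, 47.9 and 133 FPKM in ARP1 and 41.1, 37.4, 34.2 and 48.8 in H929, ratios of 1.45 and 0.50 (limma 0.97 (SE 0.24, adjusted p = 0.494)). NGLY1, the enzyme that removes sugars from NFE2L1, stood at 23.7, 25.5, 28.8 and 52.7 FPKM in ARP1 and 26.2, 25.6, 25.2 and 24.1 in H929, higher in ARP1 alone. The related factor NFE2L2 was at 0.45 and 0.35, and BACH1, a repressor at the same elements, at -0.16 and -1.04. The promoter element of NFE2L1 is the core named above.

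VCP, the segregase that pulls ubiquitinated proteins apart for the proteasome, stood at 93.0, 96.0, 76.4 and 30.8 FPKM in ARP1 and 109, 100.5, 91.4 and 94.0 in H929. As for POMP and PSMD1, the ARP1 library labelled knockdown alone was low (ratio -1.28, against 0.04 in H929). Of its cofactors, UFD1 was lower than in the control of knockdown in both lines (-0.65 and -0.62, limma -0.64 (SE 0.17, adjusted p = 0.494)), and NPLOC4 was at -0.77 and -0.21. Against the control of overexpression UFD1 was at -0.28 in ARP1 and 0.09 in H929, where its control of knockdown was the 1 high library, at 122 FPKM. UBA1, the ubiquitin-activating enzyme, was at -0.73 and -0.05. Of the assembly factors and regulators, UCHL5, a deubiquitinase bound to ADRM1, was at -0.63 and -0.37, and the ligase UBE3C at -0.58 and -0.18. The assembly chaperones went different ways. PSMG3 was at -0.45 and -0.23 and PSMG4 at -0.35 and -0.11, while PSMG1 was at -0.23 and 0.14 and PSMG2 at 0.07 and 0.15. In antigen presentation, which uses proteasome products, CALR was at -0.63 and -0.19, TAP2 at -0.60 and -0.04, and HLA-E at 0.59 and 0.22.

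**Figure D5:**
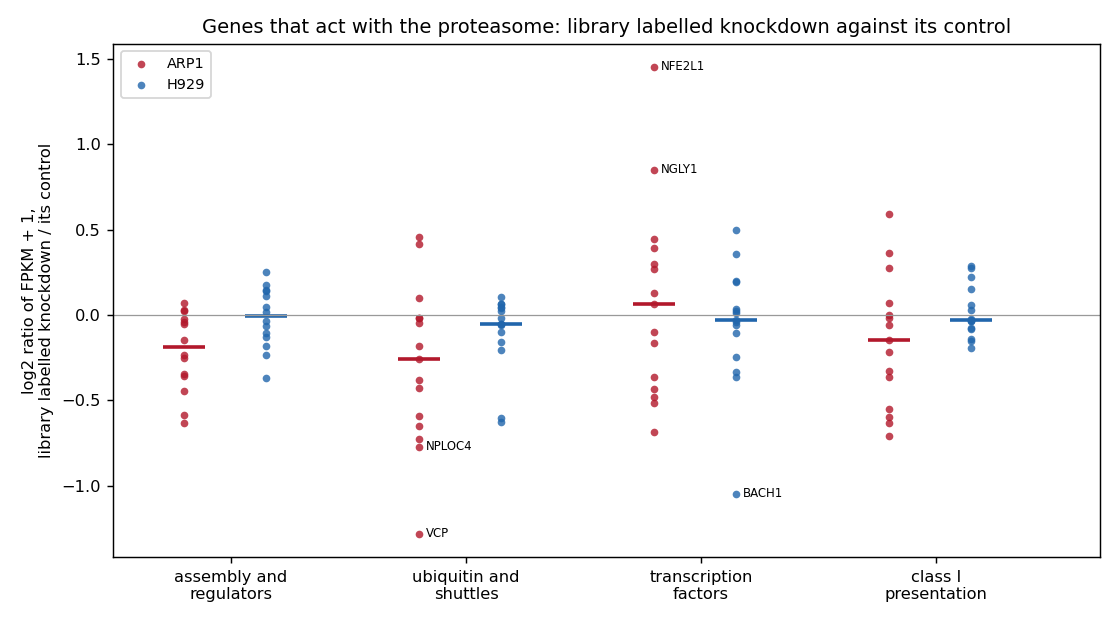
Log2 ratio of FPKM + 1, library labelled knockdown over its control, for the genes of the 4 lists (points), ARP1 in red and H929 in blue, with each list's median as a bar and the genes farthest from 0 named. NFE2L1 is the highest at 1.45 in ARP1, and VCP the lowest at -1.28.

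With overexpression, none of these genes passed by limma, and the largest differences in each list were SEM1 (-0.75), SQSTM1 (-0.79), MAFK (-0.46) and IRF1 (-0.52). SEM1, a small lid protein, was at 0.89 between the controls. Between the lines, 5 of 15 genes of class I presentation passed, all higher in ARP1 (13.7% of all genes): TAP1, B2M, HLA-B, HLA-C and NLRC5. HLA-B was at 528 ± 85.9 FPKM in ARP1 and 311 ± 62.7 in H929 (SD, n = 4, limma 0.77 (SE 0.10, adjusted p = 0.00337)). Of the assembly factors and regulators 4 of 14 passed, all lower in ARP1 (13.4% of all genes): PSMG2, PSMF1, UCHL5 and UBE3C, the last at -0.95 (SE 0.11, adjusted p = 0.0023) by limma. Among ubiquitin genes RPS27A passed as higher and NPLOC4 as lower, and among transcription factors NFE2L1 and STAT3 as higher and BACH1 and HSF2 as lower. BACH1 was at 39.0 ± 2.91 FPKM in ARP1 and 58.6 ± 21.3 in H929 (SD, n = 4), the high H929 control of knockdown included.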

How the data were processed

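Bulk RNA of 8 libraries was measured. The authors deposited 1 table of FPKM per transcript, called means, 88209 transcripts. Per the labels' protocols, the libraries held poly(A) RNA, read from both ends on a NovaSeq. Per the submitters' processing notes, the tools were Bowtie 0.12.2, HISAT2 2.0 and StringTie 1.3.0 and the build mm8, but the transcripts are human, and no human build or use of strand is given in the sources used here. Per the labels, the samples are cell lines, although the RNA protocol mentions adipose tissue.

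Transcripts were joined to GENCODE 29 (GRCh38; 87707 matched, 502 did not and were left out) and summed per gene. The 14905 genes that reached an FPKM of 1 in 2 or more libraries were taken as log2(FPKM + 1); a log2 fold change on that scale understates the change of low genes. All 8 libraries were fitted in limma 3.58.1 (R 4.3.3) with genotype and line as terms (3 residual and 3.7 prior degrees of freedom, variance trend), two-sided, with Benjamini-Hochberg adjustment over all genes tested. Line is the replicate number in the labels and enters as a block because both lines hold every genotype once. The labels do not name separate cultures, so a p-value reflects the spread among these libraries alone, which may be technical. Ratios within a line have no test. The fit was run on simulated data in which chosen genes were lowered equally in both knockdown libraries. It called 73 of 100 genes lowered by 1 log2 unit, 100 of 100 lowered by 2, and 8 of 14705 left unmoved. Smaller effects, and effects unequal between the lines as in the members, were not simulated. Shares were compared by exact permutation over libraries (scipy 1.17.1).

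The members and lists were chosen with earlier results of these data known. Named were members past the threshold, the 4 lowest and highest by the smaller ratio of both lines, the catalytic pairs, the activators, the highest and lowest by FPKM, the 4 largest line differences each way and, per other list, the genes past the threshold or the largest up to 4, of which some are not reported here. The members lower by 2-fold in ARP1, and those named as extremes or exceptions, were picked after seeing their values. Alternatives were 20 refits: pseudocount 0.1, no filter or FPKM of at least 5, scaling, no block, fewer libraries, no trend, other transcript sums (without transcripts under 300 nt, coding alone, weighted by length), the other control, and each library left out. Promoters came from RefSeq (GRCh38.p14).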

Additional observations from a re-analysis of the deposited data

Results flagged for a closer look

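In 8 of 86 groups of 4 libraries (1 line, 1 gene or share) a single library lay far from the other 3, and chance gives about 1 in 20. In the ARP1 library labelled knockdown this held for PSMA5 (23.4 FPKM, the others 38.8 to 41.5), PSMB5 (47.0, the others 71.8 to 76.2), PSMD7 (62.7, the others 102.9 to 105) and the share of PSMB9 in PSMB9 plus PSMB6 (68.6%, the others 56.9% to 58.3%). In the H929 control of knockdown PSMB7 stood at 191 FPKM (the others 160.2 to 164) and PSMD14 at 91.3 (71.3 to 72.8). PSMD4 in H929 overexpression stood at 147 (195 to 202), and PSMD3 in the H929 control of overexpression at 124 (113.7 to 114.3).

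Group medians had opposite signs in the lines, a difference that was not tested. For knockdown the ARP1 median minus the H929 median was -0.97 in the lid (-0.96 and 0.01) and -0.51 in the activators (-0.48 and 0.03). Against the control of overexpression instead, the H929 medians were -0.14 for the lid, with 7 of 8 lower, and -0.02 for the activators, with 2 lower and 2 higher. The ARP1 medians against that control were -0.88 and -0.43, so the signs were then not opposite. For overexpression it was 0.11 in the base (0.09 and -0.01), 0.16 in the lid (0.14 and -0.02) and 0.12 in the activators (0.01 and -0.11).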

How the results depend on the processing

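Members lower with knockdown (40), with knockdown minus overexpression (38) and between lines (28) stayed within 1.5 times under every alternative run. Without the ARP1 library labelled knockdown, however, the first 2 of these counts fell to 28 and 26. The members' medians then went from -0.34 to -0.06 for knockdown, and from -0.42 to -0.06 for knockdown minus overexpression. Genes past the threshold for knockdown (2) numbered 1 with pseudocount 0.1, 8 without a filter, 5 without a trend, and 0 with FPKM of at least 5, without short transcripts, with coding transcripts alone or without the replicate block; leaving out a library gave 0 to 1005, and 0 to 23 members. For overexpression (1) they numbered 5 without a filter, 0 without short transcripts, with coding transcripts alone or with the other control, and 0 to 3 without a library. For knockdown minus overexpression (2) they numbered 1 with pseudocount 0.1, 12 without a filter, 0 without short transcripts or with coding transcripts alone, and 0 to 49 without a library (0 to 2 members). Between controls (8) they numbered 2 without the replicate block, 3 without short transcripts, 4 with coding transcripts alone and 0 to 14 without a library. Between lines (4035) they numbered 1924 without a filter and 1948 to 4136 without a library; members past it (5) numbered 0 without a filter, 9 scaled to equal summed FPKM or with coding transcripts alone, 2 without the trend or without genotype as a term (the counterpart here of the fit with no replicate block), and 1 to 11 without a library. The overexpression median (0.03) was 0.10 with the other control and -0.10 to 0.17 without a library, where 2 to 27 members were lower (17 with all); that between controls was -0.080 to 0.16.

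Signs turned with the other control for PSMB4 with knockdown (0.0073) and, with overexpression, for PSMA7 (0.063), PSMB1 (-0.099) and PSME4 (-0.092). They turned for PSMD11 without the ARP1 knockdown library (0.14; -1.06 to 0.14 over libraries left out), for PSMA7 without the ARP1 control of overexpression (0.036) or the H929 overexpression library (0.019; -0.23 to 0.036 in all), and for PSMD4 without that last one (0.064; -0.57 to 0.064 in all). The PSMB10 share difference (5.06 percentage points) was 3.33 to 6.02 without a library, where 4 against 3 cannot give an exact permutation p below 0.0571. The causes were not tested. Same-numbered libraries share a cell line, so the replicate block is the line in the genotype comparisons; without it no member was called for knockdown. Depth is unknown, and n = 2 lines limits every genotype comparison.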
